A study of Mus musculus with 4 samples.

Results

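The 10 genes described here, *Pecam1*, *Cdh5*, *Kdr*, *Flt1*, *Tek*, *Tie1*, *Emcn*, *Cldn5*, *Sox18* and *Esam*, are widely used markers of endothelial cells and were taken by symbol from tables that list 46983 genes. All 10 were found and all 10 passed the filter on low values, which kept the 16972 genes whose TPM averaged 1 or more across the 4 libraries. TPM, the unit of the tables, is a share of a library's transcripts corrected for transcript length, so levels of different genes can be set side by side. RNA-seq was made from larynx tissue of mouse embryos at E10.5 (32 to 35 somites), with 3 larynxes in each pool. There were 2 pools of Shh-/- embryos, which carry the Shhtm1amc null allele kept on a Swiss Webster background, and 2 pools of Swiss Webster WT embryos. The sample labels write the mutant genotype as Shh+/-, whereas the series design text and the study's methods call the same pools Shh-/-, and that name is used here. The null allele is carried by every cell of the embryo. Litters were not given, so the 2 pools of a genotype measure the spread between pools and cannot separate it from litter or dissection.

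Endothelial cells line blood vessels, endocardium and lymphatics. Their growth is driven by vascular endothelial growth factor (VEGF) acting on the receptor kinases encoded by *Kdr* and *Flt1*, and vessel maturation depends on angiopoietins acting on *Tek* (Tie2) with its partner *Tie1*. VE-cadherin (*Cdh5*), PECAM-1, claudin 5 and ESAM hold neighboring cells together at their junctions, and SOX18 is a transcription factor of early vessels and of lymphatic precursors. Hedgehog ligands made by embryonic epithelia, including the foregut endoderm, are known to affect vessel formation in the surrounding mesenchyme, which makes these genes a natural readout in tissue that lacks *Shh*.

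Promoter windows of GRCm38.p6 (RefSeq, 250 bases before to 50 after the gene start) were on hand for 6 of the 10 genes, and those of the 3 receptor kinases with the clearest differences are printed 5′ to 3′ to show what lies upstream of genes that stood higher together. Capitals mark matches on either strand to AGGAAG or CCGGAA, both versions of the core bound by ETS factors, a family with central roles in endothelial gene expression. The *Tie1* window (chr4:118489800-118490099, minus strand) starts from a RefSeq position 212 bases inside the gene as the tables list it, the *Tek* window (chr4:94739039-94739338, plus strand) from the same base as the tables, and the *Kdr* window (chr5:75978406-75978705, minus strand) from 3 bases inside.
Tie1: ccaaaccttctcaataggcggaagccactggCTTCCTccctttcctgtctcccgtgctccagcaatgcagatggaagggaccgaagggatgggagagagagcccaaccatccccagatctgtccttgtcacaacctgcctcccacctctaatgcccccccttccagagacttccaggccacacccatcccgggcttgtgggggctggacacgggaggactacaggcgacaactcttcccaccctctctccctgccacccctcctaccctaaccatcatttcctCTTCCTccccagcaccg
Tek: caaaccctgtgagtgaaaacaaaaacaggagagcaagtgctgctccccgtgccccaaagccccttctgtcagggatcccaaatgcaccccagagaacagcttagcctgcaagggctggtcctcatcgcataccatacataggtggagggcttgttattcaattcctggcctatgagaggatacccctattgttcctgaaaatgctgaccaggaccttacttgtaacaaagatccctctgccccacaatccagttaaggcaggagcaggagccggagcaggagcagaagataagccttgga
Kdr: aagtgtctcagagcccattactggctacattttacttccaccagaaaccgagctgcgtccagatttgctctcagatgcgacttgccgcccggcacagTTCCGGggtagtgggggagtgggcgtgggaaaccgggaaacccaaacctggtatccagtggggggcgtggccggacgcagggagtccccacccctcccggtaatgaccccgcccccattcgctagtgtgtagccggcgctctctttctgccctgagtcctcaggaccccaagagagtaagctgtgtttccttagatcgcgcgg
AGGAAG was found in the windows of *Tie1* (from bases -219 and 34 relative to the start, whose base counts as 1), *Flt1* (-129 and -53) and *Emcn* (-174 and -93), and CCGGAA in that of *Kdr* (-153). One or the other was therefore in 4 of the 6 windows, against 45.2% of all 32851 windows of the same length, while the windows of *Tek* and *Cldn5* held neither. Of the other letters searched on both strands, the SOX motif ACAATG and the GLI motif ACCACCCA were in none of the 6 (12.6% and 1.5% of all windows), the GATA motif AGATAA was in *Tek* alone (11.2%) and the E-box CAGATG was in *Kdr* and *Tie1* (17.2%). None of these matches overlapped another, and they describe letters in short windows only.

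The libraries held between 1371.9 and 3128.4 Mb of aligned sequence, as the ratio of coverage to FPKM in the tables shows, with Shh-/- pool 1 the shallowest and the other 3 at 2845.3 Mb or more. *Shh* itself measured 10.4 and 10.8 TPM in Shh-/- and 23.7 and 42.1 TPM in WT, and which part of its transcript the null allele removes is not given in the sources used here. The hedgehog target *Ptch1* fell from 57.8 and 55.1 TPM in WT to 12.9 and 13.8 TPM in Shh-/- (log2 fold change -1.997, limma adjusted p = 0.0319), in the direction the labels call for. The tissue was mixed, since epithelial *Epcam* was at 86.4 to 123.4 TPM and the embryonic globin *Hbb-y* at 4550 to 7241 TPM, beside 7.10 to 78.5 TPM for the 10 endothelial genes. Single genes were tested with limma on log2(TPM + 1) over all 16972 genes, because the smallest two-sided p that exact permutation allows with 2 pools a group is 0.33.

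Endothelial transcripts were mostly measured at higher levels in Shh-/- larynx tissue. For 9 of the 10 genes both Shh-/- pools lay above both WT pools, a pattern shown by 38.0% of all tested genes, and *Esam* was the exception. Summed over the 10 genes, the level was 393 and 460 TPM in Shh-/- and 268 and 247 TPM in WT. The median log2 fold change (Shh-/- minus WT, on log2(TPM + 1)) of the 10 was 0.77, against 0.08 over all tested genes. Among the 7269 tested genes whose mean level fell within the range of the 10, the median was 0.12 and 42.2% had both Shh-/- pools above both WT pools. After Benjamini-Hochberg adjustment over all genes, *Tie1* alone of the 10 passed 0.05 as higher in Shh-/-, a call given to 0.560% of tested genes (0.165% were called lower and 0.725% in either direction). At an adjusted p under 0.10, 6 of the 10 were higher, compared with 3.95% of tested genes (5.06% passed in either direction). TPM is a share of a library, and the study reported cell death in the epithelium and mesenchyme of Shh-/- vocal folds. In tissue pools, more endothelial cells, fewer other cells and more RNA of these genes per cell cannot be told apart.

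**Figure D1:**
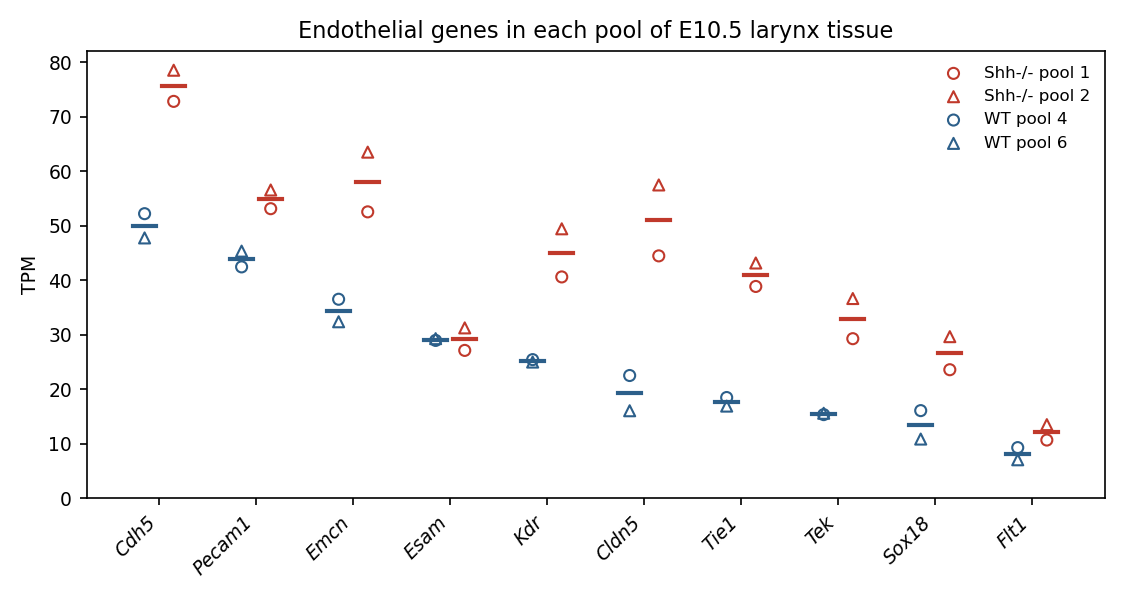
TPM of the 10 endothelial genes in each pool, ordered by WT mean; points are single pools (red, Shh-/-; blue, WT) and short lines are the means of 2 pools. The red points of *Tie1* (38.9 and 43.2 TPM) sit far above the blue ones (18.5 and 16.9 TPM), while those of *Esam* lie on both sides of the WT points.

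The angiopoietin receptor pair gave the clearest difference. *Tie1* (chromosome 4, 118471191 to 118490061 of mm10), an orphan receptor that modulates Tie2 signaling, measured 38.9 and 43.2 TPM in Shh-/- and 18.5 and 16.9 TPM in WT. The means of 41.0 ± 3.04 and 17.7 ± 1.11 TPM (SD, n = 2 pools each) differed 2.31-fold, and the log2 fold change was 1.17 (standard error 0.13, limma adjusted p = 0.047). Its adjusted p lay close to the threshold and was 0.123 to 0.182 when any 1 of the 4 pools was left out, while the log2 fold change stayed between 1.09 and 1.24. *Tek* (chromosome 4, 94739289 to 94874976), the angiopoietin receptor itself, was at 29.3 and 36.7 TPM in Shh-/- and at 15.4 and 15.6 TPM in WT. Both Shh-/- pools were thus far above a pair of WT pools that hardly differed, but the log2 fold change, 1.03 with a standard error of 0.15, did not pass the test (limma adjusted p = 0.0688). Within a pool the ratio of *Tie1* to *Tek* TPM was 1.33 and 1.18 in Shh-/- and 1.20 and 1.08 in WT, so that the values of the genotypes overlapped.

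Neither VEGF receptor passed the test, although the pools of *Kdr* were further apart than those of *Flt1*. *Kdr* (chromosome 5, 75932827 to 75978458), which encodes the main signaling receptor VEGFR2, had 40.6 and 49.5 TPM in Shh-/- and 25.5 and 25.02 TPM in WT. The WT pools were nearly equal and well below the Shh-/- pools, with a difference of 0.80 on the log2 scale (standard error 0.14, limma adjusted p = 0.0809). *Flt1* (chromosome 5, 147561604 to 147726011) encodes VEGFR1, which binds VEGF tightly and limits its action on VEGFR2. It was the least abundant of the 10 in both genotypes, at 10.7 and 13.5 TPM in Shh-/- and 9.33 and 7.10 TPM in WT. The pools did not overlap, but the gap between the nearest Shh-/- and WT pools was smaller than that between the pools of either genotype, and the log2 fold change of 0.51 had a 95% interval from -0.02 to 1.05 (limma adjusted p = 0.211). *Kdr* exceeded *Flt1* 3.79- and 3.65-fold in the Shh-/- pools and 2.73- and 3.52-fold in the WT pools.

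Among the junction genes, *Cldn5* had the largest difference of the 10 and *Esam* the smallest. *Cldn5* (chromosome 16, 18776847 to 18778260), a tight junction protein of endothelial cells, was at 44.5 and 57.5 TPM in Shh-/- and at 22.6 and 16.1 TPM in WT, a 2.64-fold difference of means. The pools of each genotype also differed from each other, which left a log2 fold change of 1.36 with a standard error of 0.22 (limma adjusted p = 0.0728). *Cdh5* (chromosome 8, 104101625 to 104144502), the adherens junction cadherin of endothelium and the most abundant of the 10 in both genotypes, measured 72.8 and 78.5 TPM in Shh-/- and 52.2 and 47.8 TPM in WT. This corresponded to a log2 fold change of 0.59 (standard error 0.11, limma adjusted p = 0.0895). *Pecam1* (chromosome 11, 106654217 to 106750628), an adhesion receptor also carried by platelets and some leukocytes, had 53.1 and 56.6 TPM in Shh-/- against 42.5 and 45.4 TPM in WT. The pools were separate, yet the log2 fold change was only 0.31 (standard error 0.11, limma adjusted p = 0.176). *Esam* (chromosome 9, 37528078 to 37538319), an immunoglobulin-family junction molecule of endothelium and platelets, was at 27.2 and 31.3 TPM in Shh-/- and at 29.0 and 29.3 TPM in WT. The WT pools fell between the Shh-/- pools, and the 95% interval of the log2 fold change ran from -0.33 to 0.33 around a value of 0.00.

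The other 2 genes followed the majority. *Emcn* (chromosome 3, 137341067 to 137432185) encodes endomucin, a surface sialomucin that is most abundant on venous and capillary endothelium. Its levels were 52.6 and 63.5 TPM in Shh-/- and 36.5 and 32.4 TPM in WT, pools that did not overlap, and the difference on the log2 scale was 0.73 (standard error 0.14, limma adjusted p = 0.0951). *Sox18* (chromosome 2, 181669836 to 181671640) was at 23.6 and 29.7 TPM in Shh-/- and 16.1 and 10.9 TPM in WT. Its WT pools stood further apart than those of *Emcn*, and the log2 fold change of 0.95 (standard error 0.23) had a limma adjusted p of 0.118. No gene in the tables overlapped the listed span of any of the 10.

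**Figure D2:**
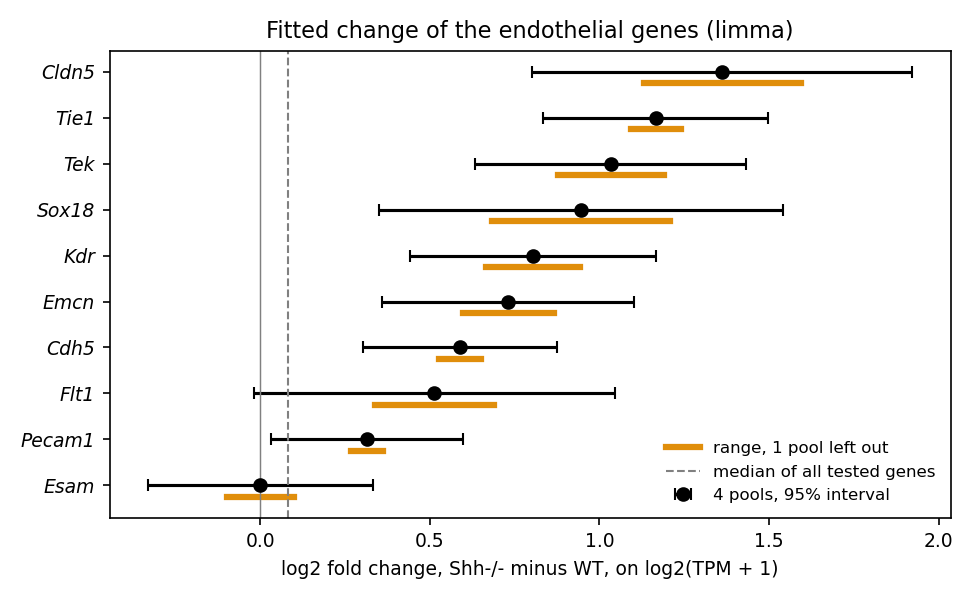
Log2 fold change of each endothelial gene on log2(TPM + 1), Shh-/- minus WT; black points are fitted values with 95% intervals from limma, orange bars the range when single pools are left out, and the dashed line the median of all tested genes (0.08). The intervals of *Esam* and *Flt1* include 0, and the orange bar of *Tie1* runs from 1.09 to 1.24.

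The differences were unequal among the 10 genes. Fitted log2 fold changes ran from 0.00 (*Esam*) to 1.36 (*Cldn5*), positions below which 41.7% and 98.4% of all tested genes lay. *Esam* was the fourth most abundant of the 10 in WT and the eighth in Shh-/-, where *Cldn5*, *Kdr*, *Tie1* and *Tek*, all below it in WT, stood above it. In that order the neighbors *Cldn5* and *Tie1*, and *Tek* and *Sox18*, overlapped between pools in WT. In Shh-/- the pools overlapped for each neighboring pair from *Emcn* to *Tie1*, and again for *Tek* with *Esam* and *Esam* with *Sox18*.

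Levels were also set against *Pecam1* of the same pool, which compares the genes with each other within a library. *Tie1* was then 0.732 and 0.763 of *Pecam1* in the Shh-/- pools and 0.436 and 0.373 in WT. For *Cldn5* the ratios were 0.837 and 1.02 in Shh-/- and 0.531 and 0.355 in WT. *Esam* went the other way, with 0.511 and 0.553 in Shh-/- and 0.682 and 0.646 in WT. The ratios of *Flt1* overlapped between the genotypes, at 0.202 and 0.239 in Shh-/- and 0.220 and 0.156 in WT. *Pecam1* itself had a log2 fold change of 0.31, so a gene with a larger change stands higher against it in Shh-/-. These ratios therefore restate unequal differences among the genes and carry no test.

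**Figure D3:**
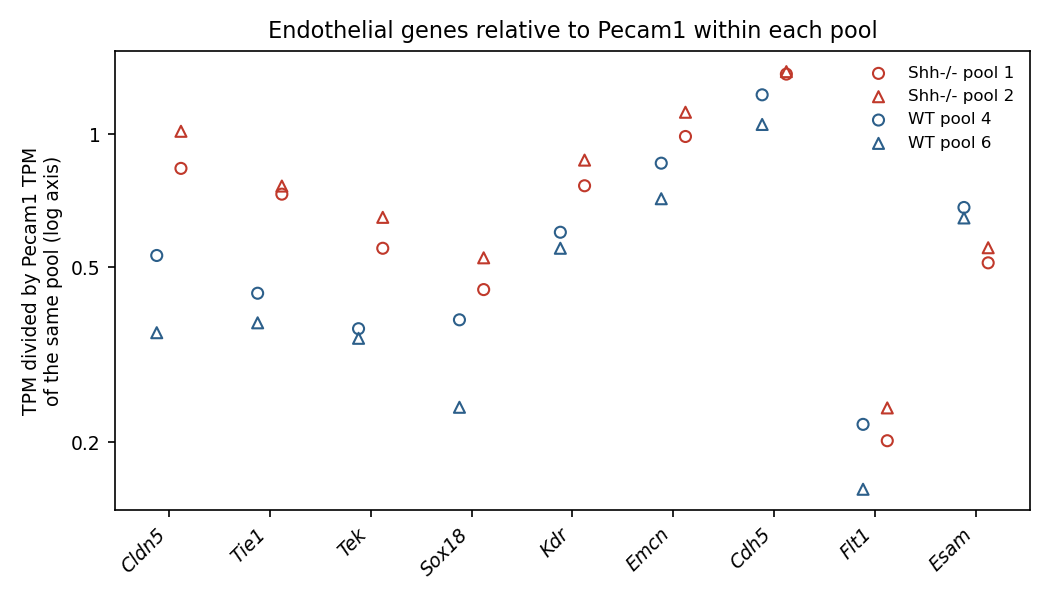
TPM of 9 endothelial genes divided by the *Pecam1* TPM of the same pool, on a log axis; red, Shh-/- pools, and blue, WT pools. The red points of *Tie1* (0.732 and 0.763) lie above the blue ones (0.436 and 0.373), and those of *Esam* lie below.

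Pools of one genotype also differed in a common direction. All 10 genes were higher in Shh-/- pool 2 than in Shh-/- pool 1, as were 41.9% of all tested genes, with a median log2 difference of 0.27 over the 10 and -0.05 over all tested genes. In WT, 7 of the 10 were higher in pool 4 than in pool 6, compared with 55.5% of tested genes. The erythroid list moved with the first of these differences, since 11 of its 13 tested genes were higher in Shh-/- pool 2 (median log2 difference 0.55). So did the hedgehog targets, of which 7 of 8 were higher in Shh-/- pool 2 (median 0.68). Foregut epithelium genes were mostly lower there, with 3 of 11 higher (median -0.20). Shh-/- pool 1 was also the shallowest library, and the part of depth or of dissection in these differences was not tested. Without Shh-/- pool 1 the median log2 fold change of the 10 was 0.90 and all 10 lay above both WT pools (47.0% of tested genes did), and without Shh-/- pool 2 the median was 0.63 with 9 of the 10 above (50.7%).

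Other genes of endothelial identity, from a list with none of the 10 in it, lay mostly in the same direction. Of 36 listed genes, 35 were tested, 33 had a fitted change above 0 (58.3% of all tested genes did) and 29 had both Shh-/- pools above both WT pools (38.0% of tested genes). The median log2 fold change was 0.65, and 0.49 to 0.74 with 1 pool left out. When corrected for length and GC content it was 0.45, with 31 of the 35 above 0. None passed an adjusted p of 0.05 in limma, and 19 were higher at an unadjusted p under 0.05 (17.5% of tested genes). *Klf2*, a shear-responsive transcription factor, was at 13.8 and 13.4 TPM in Shh-/- and 5.60 and 4.14 TPM in WT (log2 fold change 1.33, limma adjusted p = 0.0641). *Hhex*, a homeobox gene of endothelial and endodermal progenitors, had 13.1 and 7.06 TPM against 3.97 and 3.20 TPM (1.22, limma adjusted p = 0.124). *Nos3*, the endothelial nitric oxide synthase, was at 11.8 and 12.3 TPM against 5.88 and 4.95 TPM (1.03, limma adjusted p = 0.0728).

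Most ligands, co-receptors and regulators of the VEGF, angiopoietin, apelin and PDGF pathways were measured higher in Shh-/-, and 4 were lower. Of 21 tested genes, 17 had a fitted change above 0 (58.3% of tested genes), with a median of 0.48. The median was 0.39 when corrected for length and GC content. For 14 genes both Shh-/- pools lay above both WT pools (38.0% of tested genes). The 4 genes with a change below 0 all had both Shh-/- pools under both WT pools (22.7% of tested genes did). *Aplnr*, the apelin receptor of sprouting and venous endothelium, was the 1 called gene of the list (0.560% of tested genes were called higher) and rose from 13.2 and 11.95 TPM in WT to 39.6 and 43.5 TPM in Shh-/- (log2 fold change 1.65, standard error 0.13, limma adjusted p = 0.0323). Leaving out single pools gave log2 fold changes of 1.58 to 1.71, and its limma adjusted p reached 0.146 among the alternatives. Its ligand gene *Apln* was at 5.73 and 4.76 TPM in Shh-/- and at 2.13 and 1.55 TPM in WT (1.14, limma adjusted p = 0.0895). *Angptl1*, an angiopoietin-like secreted factor, was at 5.35 and 7.96 TPM in Shh-/- and 17.1 and 22.6 TPM in WT (-1.45, limma adjusted p = 0.0778).

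The ligands of the receptors described above give the other side of these pathways, although the genes named were chosen after their values were seen. *Vegfa*, the main VEGFR2 ligand, had 49.3 and 42.3 TPM in Shh-/- and 44.0 and 31.8 TPM in WT, with pools that overlapped. *Vegfc*, another VEGF ligand gene, did not overlap, at 21.3 and 21.2 TPM in Shh-/- and 14.3 and 13.1 TPM in WT (log2 fold change 0.60, limma adjusted p = 0.104). *Pgf*, a ligand that binds VEGFR1 and not VEGFR2, was at 8.89 and 14.9 TPM in Shh-/- and 22.9 and 27.9 TPM in WT (log2 fold change -1.07, limma adjusted p = 0.121). *Vegfb*, which also binds VEGFR1 and not VEGFR2, lay in the other direction, at 44.4 and 48.8 TPM in Shh-/- and 39.2 and 30.9 TPM in WT (0.41, limma adjusted p = 0.196). For *Angpt2*, a context-dependent ligand of Tie2 made by endothelium, the values were 8.79 and 7.37 TPM against 4.63 and 3.02 TPM (0.93, limma adjusted p = 0.124). *Angpt1*, the activating Tie2 ligand of perivascular cells, was at 19.6 and 20.7 TPM in Shh-/- and 17.4 and 21.2 TPM in WT and overlapped between genotypes. *Angpt4*, a further Tie2 ligand, was low in all pools, at 0.483 and 0.615 TPM in Shh-/- and 2.58 and 2.17 TPM in WT (-1.12, limma adjusted p = 0.0951).

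The list of arterial genes and the list of venous and lymphatic genes gave unlike medians, and the difference between the lists was not tested. Of 12 arterial genes, 8 had a fitted change above 0, against 58.3% of all tested genes, and 5 had both Shh-/- pools above both WT pools, against 38.0%, so that both shares were near those of all genes. Their median log2 fold change was 0.24, lay between 0.07 (without WT pool 6) and 0.40 (without WT pool 4) when single pools were left out, and turned to -0.04 once GC content and transcript length were corrected for. *Notch1*, a receptor of arterial specification that other tissues also express, was at 21.7 and 20.9 TPM in Shh-/- and 10.2 and 8.32 TPM in WT (log2 fold change 1.13, limma adjusted p = 0.0622). The transcriptional repressor gene *Hey2* had 16.5 and 16.5 TPM against 8.31 and 9.52 TPM (0.82, limma adjusted p = 0.0849), and the kinase gene *Bmx* 5.28 and 4.57 TPM against 2.20 and 3.17 TPM (0.70, limma adjusted p = 0.159). The other 9 arterial genes, described after their values were seen, were mixed, since *Hey1* and *Cxcr4* had both Shh-/- pools above both WT pools, *Dll4* and *Jag1* had both below, and the other 5 overlapped. *Gja5*, the connexin 40 gene, was at 26.2 and 22.7 TPM in Shh-/- and 23.7 and 25.1 TPM in WT, and the Notch ligand gene *Dll4* at 7.30 and 5.99 TPM in Shh-/- and 8.38 and 7.42 TPM in WT.

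The 10 venous and lymphatic genes include *Sox18* and share *Flt4* and *Nrp2* with the list of VEGF and angiopoietin genes. Of these 10, 9 were tested, all 9 had a fitted change above 0 (58.3% of all tested genes did) and 7 had both Shh-/- pools above both WT pools (38.0%). With median centring 7 of the 9 were above 0. Their median log2 fold change was 0.53, or 0.32 when corrected for length and GC content. None passed an adjusted p of 0.05 (5 were higher at an unadjusted p under 0.05 in limma, as were 17.5% of tested genes). *Nrp2*, a VEGF-C co-receptor of veins and lymphatics, was at 49.4 and 45.5 TPM in Shh-/- and 24.1 and 24.4 TPM in WT (0.94, limma adjusted p = 0.0577). *Stab1*, a scavenger receptor of sinusoidal endothelium and macrophages, was at 20.5 and 18.2 TPM against 10.2 and 10.4 TPM (0.85, limma adjusted p = 0.078). *Prox1* and *Lyve1*, which mark lymphatic endothelium and were named after their values were seen, stayed between 0.87 and 2.93 TPM in all 4 pools. Other genes of this list were more abundant, among them *Flt4* at 4.23 to 8.81 TPM and *Pdpn* at 20.6 to 26.5 TPM. *Ephb4* and *Nr2f2*, linked to venous fate and also named after their values were seen, had both Shh-/- pools above both WT pools. *Ephb4* was at 91.3 and 77.0 TPM against 62.8 and 53.0 TPM (0.53, limma adjusted p = 0.134, and 0.18 when corrected for length and GC content). *Nr2f2* was at 101.0 and 95.5 TPM against 86.8 and 87.8 TPM (0.17, limma adjusted p = 0.328, and 0.21 when corrected).

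**Figure D4:**
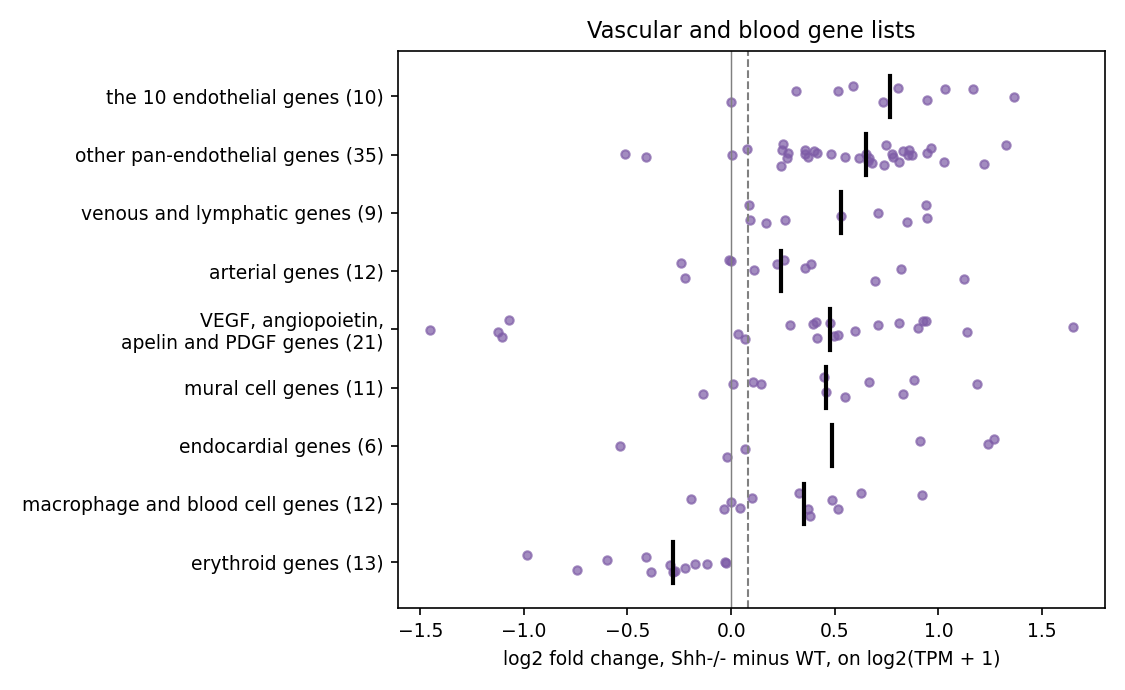
Log2 fold change (Shh-/- minus WT, on log2(TPM + 1)) of each tested gene in 9 vascular and blood gene lists, with the number tested in brackets; black bars are medians and the dashed line is the median of all tested genes (0.08). The medians run from 0.77 for the 10 endothelial genes and 0.65 for other pan-endothelial genes to 0.24 for arterial and -0.28 for erythroid genes.

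Red blood cell transcripts had no stable direction across the pools. All 13 tested erythroid genes had a fitted change below 0, the median being -0.28 on the log2 scale and -0.43 with the correction for length and GC content, but this direction rested on Shh-/- pool 1. Without that pool 5 of the 13 were below 0 and the median was 0.01, and without Shh-/- pool 2 all 13 were below 0 with a median of -0.56. With all pools none passed the test, at an adjusted or an unadjusted p under 0.05 in limma. The share of TPM held by haemoglobin genes was 1.18 and 1.79% for Shh-/- and 1.63 and 1.85% for WT. The summed TPM of the 10 endothelial genes per 1000 TPM of the erythroid list was 33.1 and 25.6 in Shh-/- and 16.4 and 13.4 in WT. *Hbb-bs* was at 73.1 and 62.7 TPM in Shh-/- and 243.7 and 74.4 TPM in WT, and *Hbb-bt* at 60.5 and 57.3 TPM against 148.3 and 54.2 TPM, so that WT pool 4 stood apart for both adult β-globin genes, which are close copies of each other and may share reads.

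Mural cells, the pericytes and smooth muscle around vessels, were represented by 11 genes, of which 10 had a fitted change above 0 (58.3% of all tested genes did) and 6 had both Shh-/- pools above both WT pools (38.0%). In this list 1 gene was called higher, a call given to 0.560% of tested genes. The median log2 fold change was 0.46, and 0.29 when corrected for length and GC content. *Tagln*, an actin-binding protein gene of smooth muscle that other mesenchymal cells also express, rose from 116.4 and 120.4 TPM in WT to 231.5 and 207.9 TPM in Shh-/- (log2 fold change 0.88, limma adjusted p = 0.0493, and up to 0.195 among the alternatives). *Acta2*, smooth muscle actin, was at 179.4 and 197.8 TPM in Shh-/- and 103.8 and 107.2 TPM in WT (0.83, limma adjusted p = 0.0559). *Abcc9*, a potassium channel subunit gene of pericytes, was at 1.67 and 2.06 TPM against 0.405 and 0.128 TPM (1.18, limma adjusted p = 0.102), at levels near or below the pseudocount of 1.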

How the data were processed

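Poly(A) RNA-seq libraries of 4 pools of 3 larynxes were compared, 2 Shh-/- and 2 WT. The authors used a directional library kit, aligned the reads to mm10 with HISAT2 2.1.0 and quantified genes with StringTie 1.3.6. The deposited tables hold mean read coverage (a signal not normalized between libraries), FPKM and TPM. No read counts were used, so no counting interval was computed, and precision is given by the spread between pools. Aligned bases were taken from the ratio of coverage to FPKM in genes with 1 GENCODE M21 transcript. The 37 genes of the mitochondrial genome read 0 in all 4 tables, so a 0 may be a failed estimate.

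TPM was summed per gene ID. limma 3.58.1 in R 4.3.3 (lmFit, eBayes with a trend) was run on log2(TPM + 1) for 16972 genes averaging 1 TPM or more, without covariates and with Benjamini-Hochberg adjustment at 0.05. The study reported more differing genes in these pools, at a false discovery rate under 0.05, than the 123 called here. Its methods do not name the test. Fold changes on the log2(TPM + 1) scale understate those of low genes. The scripts were tested on simulated data. Genes named are the 10 endothelial genes, *Shh* and *Ptch1*, every called gene of the other lists and the 3 with the largest change in each, of which 1 erythroid gene is not reported here. *Epcam*, *Hbb-y*, *Vegfa*, *Vegfb*, *Vegfc*, *Pgf*, *Angpt1*, *Angpt2*, *Angpt4*, *Gja5*, *Dll4*, *Jag1*, *Hey1*, *Cxcr4*, *Prox1*, *Lyve1*, *Flt4*, *Pdpn*, *Ephb4*, *Nr2f2*, *Ets1*, *Adgrl4*, *Npr3*, *Cgnl1*, *Hapln1* and *Nkx2-3* fall outside this rule and were chosen after their values were seen. The endothelial genes and the lists were chosen with earlier results of these data known. *Vegfd* was matched by gene ID, and *Ahsp* was not analysed here. Alternatives were another pseudocount, other filters, median centring, quantile normalization, TPM rescaled after removal of haemoglobin genes, splines (5 degrees of freedom) that correct for transcript length and GC content in 16887 genes, eBayes without trend, an adjusted p of 0.10, and omission of each pool. Sequences are from RefSeq (GRCm38.p6, the same assembly as mm10).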

Additional observations from a re-analysis of the deposited data

How the results depend on the processing

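The median log2 fold change of the 10 endothelial genes moved by less than the spread between pools (SD 0.148) under each alternative, from 0.64 with median centring to 0.79 with a pseudocount of 0.1, and from 0.63 to 0.90 with 1 pool left out. The count of 9 genes with both Shh-/- pools above both WT pools was also taken under other scalings, added after the data were seen. It stayed at 9 with median centring (27.3% of tested genes), quantile normalization (30%) and the correction for GC content and transcript length (36%). Median centring moved the median of all tested genes from 0.08 to -0.05. The call of *Tie1* was less stable. The number of endothelial genes called in limma was 0 with a pseudocount of 0.1, no filter, quantile normalization, median centring, the correction for GC content and transcript length or eBayes without trend, where the adjusted p of *Tie1* was 0.0539 to 0.146, 6 at an adjusted p under 0.10, and 0 with any pool left out. Over all genes 123 were called (4202 at an unadjusted p under 0.05), 69 with a pseudocount of 0.1, 858 at an adjusted p under 0.10, 0 with no filter (5011 unadjusted, over 28524 genes) and 0 without Shh-/- pool 1, Shh-/- pool 2 or WT pool 4 and 16 without WT pool 6 (2070 to 3761 unadjusted). *Esam*, at a log2 fold change of 0.00, had values of -3.42e-05 with a pseudocount of 0.1, -0.11 with quantile normalization, -0.13 with median centring, -0.0036 without haemoglobin genes, -0.097 after the correction for GC content and transcript length, and -0.099 to 0.099 with 1 pool left out. The cause of these shifts was not tested. No paired analysis was possible because the genotypes share no replicate number. The pool left alone in a genotype was assumed to vary like the other genotype's pools.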

Other observations

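The endocardium, the endothelium of the heart, was represented by 6 genes, of which 4 had a fitted change above 0 (58.3% of all tested genes did) and 3 had both Shh-/- pools above both WT pools (38.0%). Their median was 0.49 on the log2 scale. With median centring 3 of the 6 were above 0. *Nrg1*, which encodes an endocardial and neuronal growth factor, was at 4.40 and 4.50 TPM in Shh-/- and 1.302 and 1.229 TPM in WT (log2 fold change 1.27, limma adjusted p = 0.0693). *Nfatc1*, a transcription factor of endocardial cushions, was at 4.93 and 3.70 TPM against 1.13 and 1.35 TPM (1.24, limma adjusted p = 0.0856), and *Tmem108* at 9.14 and 12.2 TPM against 5.54 and 4.81 TPM (0.91, limma adjusted p = 0.106). The other 3 genes were named after their values were seen. *Npr3* had both Shh-/- pools below both WT pools, at 9.83 and 10.1 TPM against 13.0 and 16.9 TPM (-0.54, limma adjusted p = 0.164). *Cgnl1* (-0.02) and *Hapln1* (0.07) were near 0, with pools that overlapped. Of 16 macrophage, platelet and other blood cell genes, 12 were tested and 10 had a fitted change above 0, with a median of 0.35. It came to 0.16 when corrected for length and GC content, 0.19 without Shh-/- pool 1 and 0.07 without WT pool 4. None passed an adjusted p of 0.05 in limma, and 1 was higher at an unadjusted p under 0.05 (17.5% of tested genes). *Gp1bb*, a platelet glycoprotein gene, was at 7.21 and 4.75 TPM in Shh-/- and 2.17 and 3.17 TPM in WT (0.92, limma adjusted p = 0.146). *C1qb*, a complement gene of macrophages, was at 7.21 and 4.12 TPM against 3.25 and 3.83 TPM (0.52, limma adjusted p = 0.31). *Aif1* is listed at 0 in WT pool 4 and at 1.43 to 2.26 TPM in the other 3 pools.

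Of 8 hedgehog target genes 7 had both Shh-/- pools below both WT pools (22.7% of tested genes did), and the median log2 fold change was -2.30. The remaining gene, *Nkx2-3*, named after its values were seen, had both Shh-/- pools above both WT pools. It was at 7.50 and 4.20 TPM in Shh-/- and 1.77 and 1.66 TPM in WT (1.29, limma adjusted p = 0.107). *Ptch1*, *Hhip* (-3.36, limma adjusted p = 0.0323) and *Foxf2* (-3.67, limma adjusted p = 0.0383) passed the test, with adjusted p-values that reached 0.146, 0.146 and 0.154 among the alternatives, and 0.165% of tested genes were called lower. *Foxf1*, a factor of the mesenchyme around the gut that is also known from vascular development, was at 0.848 and 9.57 TPM in Shh-/- and 72.3 and 64.6 TPM in WT (-3.97, limma adjusted p = 0.0976). Its Shh-/- pools thus differed by more than their own mean. *Foxf1* was one of the 7 hedgehog targets, of 8, that were higher in Shh-/- pool 2. So were 11 of 13 erythroid genes and all 10 endothelial genes, and a link between these genes was not tested. Of 11 foregut epithelium genes, 7 had a fitted change above 0 and 4 below (median 0.08), close to the 58.3% of all tested genes above 0. The median turned to -0.04 with 5 of 11 above 0 after the correction for GC content and transcript length, 4 of 11 were above 0 with median centring, and the median was -0.08 without Shh-/- pool 1 and -0.03 without WT pool 4. *Foxa2* was at 5.34 and 9.12 TPM in Shh-/- and 29.2 and 39.8 TPM in WT (-2.13, limma adjusted p = 0.0602), *Foxa1* at 14.5 and 15.6 TPM against 25.6 and 37.8 TPM (-1.004, limma adjusted p = 0.102), and *Krt8* at 124.3 and 107.6 TPM against 84.0 and 86.5 TPM (0.44, limma adjusted p = 0.128).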
